A study of Mus musculus with 12 samples.

Results

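The genes of the mitochondrial ribosomal proteins were followed in inguinal white adipose tissue (iWAT), the subcutaneous fat pad of the mouse in which cold exposure brings out heat-producing beige adipocytes. Members were all rows whose symbol begins with *Mrpl* or *Mrps* and a digit, which gave 76 of the 14159 listed genes, 48 of them *Mrpl* and 28 *Mrps*. The further RefSeq members of the family *Mrpl15* and *Mrps16* were not analysed here. Atf4AKO mice carry floxed *Atf4* alleles and the *Adipoq*-Cre transgene, whose promoter is active in adipocytes, and Atf4WT mice are their floxed littermates without Cre, so both genotypes carry the floxed alleles on a C57BL/6 background. Mice stayed at RT (22 °C) or spent 24 h at 5 °C, which gave the 4 groups Atf4WT RT, Atf4AKO RT, Atf4WT cold and Atf4AKO cold with 3 biological replicates, numbered 0 to 2, in each. The age and sex of these mice are not given in the sources used here. The whole fat pad was sequenced, so cells other than adipocytes contribute reads and keep *Atf4* in the Atf4AKO mice, and a change in the number of cells of a type cannot be told apart from a change in RNA per cell.

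The mitochondrial ribosome translates the few messenger RNAs of the mitochondrial genome, all of which encode subunits of the respiratory chain and of ATP synthase. Its RNA is made in the mitochondrion, whereas each of its proteins is encoded in the nucleus, translated in the cytosol and imported. The small subunit (*Mrps* symbols) binds the messenger RNA and decodes it, and the large subunit (*Mrpl* symbols) joins the amino acids and holds the exit for the nascent chain. Many members descend from bacterial ribosomal proteins and others are found only in mitochondria. In adipose tissue, an increase in mitochondria is a known part of the change towards beige fat.

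Values are normalized counts, that is reads per gene divided by the size factor of the library, and fold changes are on the log2(normalized count + 1) scale. Genes with a mean under 10 normalized counts were not tested, but all 76 members were above this level and none was below 360.7 normalized counts in any library. A gene was called where the adjusted p-value of limma over all 13404 tested genes was under 0.05. The libraries held 25719476 to 29105147 reads on listed genes. Replicates differed by more than sampling noise. The adipocyte marker *Adipoq* was between 55499.7 and 108458 normalized counts and was itself called lower after cold exposure in Atf4WT (−0.60, adjusted p = 0.0148), with −0.36 (adjusted p = 0.119) in Atf4AKO. Over 10 white adipocyte markers, *Adipoq* among them, the median log2 fold changes were −0.08 in Atf4WT and −0.03 in Atf4AKO. In each genotype 5 of these had a higher and 5 a lower estimate. Only 1 was called lower in Atf4WT, and none was called in Atf4AKO. *Atf4* itself had normalized counts of 5669, 4670.3 and 4107 in Atf4WT RT, 1594, 1469.7 and 1639 in Atf4AKO RT, 7644, 7511 and 5756 in Atf4WT cold and 1578, 788 and 1179.8 in Atf4AKO cold. Every Atf4AKO library was below every Atf4WT library for *Atf4*, with log2 differences of −1.61 (adjusted p = 0.0762) at RT and −2.60 (adjusted p = 0.000644) after cold exposure. Markers of B cells and T cells moved with the groups. Their mean log2 value, called the lymphocyte score, covers 20 of 22 markers, none of them at 0 in any library, and was 4.11, 3.89 and 7.07 in Atf4WT RT, 5.29, 4.004 and 5.09 in Atf4AKO RT, 7.21, 9.20 and 9.71 in Atf4WT cold and 5.01, 3.53 and 3.91 in Atf4AKO cold. The 3 Atf4WT cold libraries thus had the highest scores, although Atf4WT RT replicate 2 came close to the lowest of them. Macrophage and fibroblast markers had lower estimates after cold exposure in both genotypes, with median log2 fold changes of −0.94 and −0.96 over 5 of 6 macrophage markers and −1.01 and −0.94 over 6 fibroblast markers in Atf4WT and Atf4AKO, of which 1 and 2 fibroblast markers were called lower. Of 6 endothelial markers, 2 were called lower in Atf4WT and 1 was called higher in Atf4AKO. The mean log2 value of the macrophage markers was 8.61 in Atf4WT cold replicate 1, 8.09 in Atf4AKO cold replicate 1 and at least 10.09 in all other libraries. That of the fibroblast markers was also lowest in these libraries, at 11.07 and 10.98, and at least 12.23 in all others. The part of other cell types in the results below was not tested.

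After cold exposure, transcripts of most of the family were higher in both genotypes. In Atf4WT iWAT, 46 of the 76 members were called higher after cold exposure (29 *Mrpl* and 17 *Mrps*), against 17.0% of all tested genes. In Atf4AKO iWAT, 45 were called higher (27 *Mrpl* and 18 *Mrps*), against 14.8% of all tested genes. The cold libraries lay above the RT libraries without overlap for 52 members in Atf4WT, beside 23.9% of all tested genes, and for 54 members in Atf4AKO, beside 21.7%. *Mrps6* was the 1 member called lower, in both genotypes, whereas 14.9% of all tested genes were called lower in Atf4WT and 11.0% in Atf4AKO iWAT. By the thresholds of the study, more than 1.5-fold and p under 0.05 without adjustment, 22 members passed as higher in Atf4WT (10.9% of all tested genes) and 21 in Atf4AKO iWAT (8.30%). The size of the response was therefore moderate for most members, with a median fold of 1.34 in Atf4WT and 1.33 in Atf4AKO mice. The 46 members called in either direction in Atf4AKO became 29 when Atf4AKO cold replicate 1 was left out, and all 29 were higher. This library had the highest values for the family and the lowest for macrophage and fibroblast markers.

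**Figure D1:**
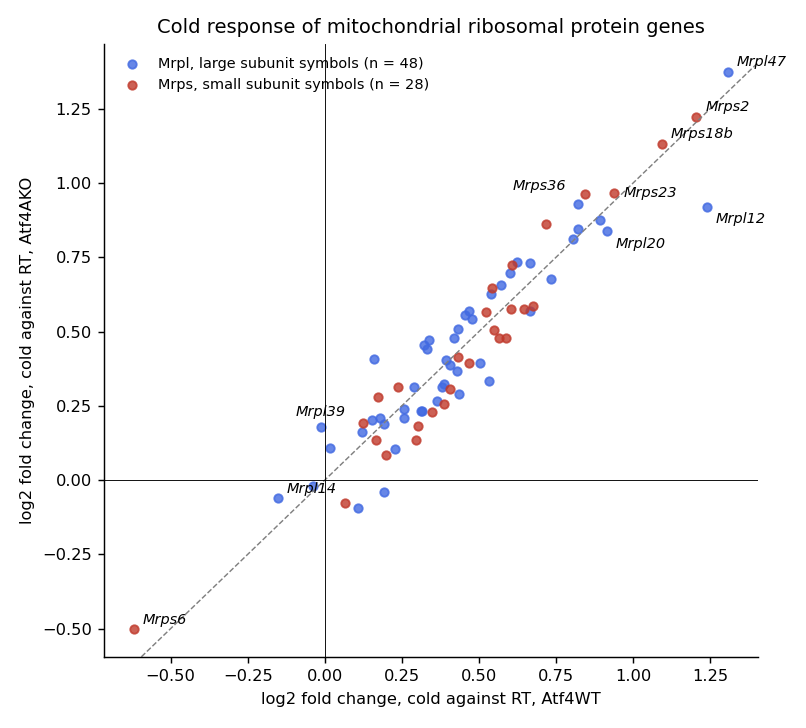
Log2 fold change of each of the 76 members between cold exposure and RT in Atf4WT (x axis) and Atf4AKO (y axis) iWAT, with *Mrpl* genes in blue, *Mrps* genes in red and a dashed line where both are equal. Most points lie along the line between 0 and 1, *Mrpl47*, *Mrps2* and *Mrps18b* lie above 1 on both axes, and *Mrps6* lies alone at −0.62 and −0.50.

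Seen by library, the family as a whole separated cold from RT. Its share of all normalized counts was 0.365, 0.380 and 0.346% in Atf4WT RT and 0.514, 0.502 and 0.467% in Atf4WT cold. In Atf4AKO the share was 0.375, 0.393 and 0.373% at RT and 0.459, 0.548 and 0.470% after cold exposure. All 6 cold libraries were thus above all 6 RT libraries. The mean log2 value over the *Mrpl* genes was 10.19 ± 0.14 (SD, n = 3) in Atf4WT RT, 10.63 ± 0.13 in Atf4WT cold, 10.30 ± 0.11 in Atf4AKO RT and 10.73 ± 0.15 in Atf4AKO cold. Over the *Mrps* genes it was 10.09 ± 0.12, 10.56 ± 0.12, 10.20 ± 0.10 and 10.65 ± 0.15 in the same order. Within each group the order of the 3 replicates was the same for *Mrpl* and *Mrps* genes, so a library that was high for one subunit was high for the other.

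**Figure D2:**
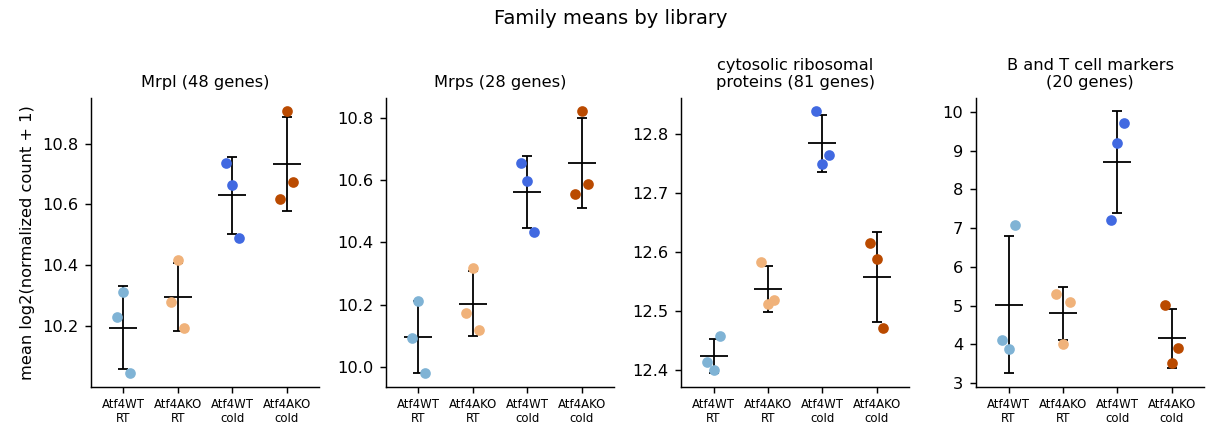
Mean log2(normalized count + 1) in each library (points), with the group mean and SD (n = 3), for the *Mrpl* genes, the *Mrps* genes, the cytosolic ribosomal protein genes and the B and T cell markers; the y axes differ between panels and do not start at 0. In the panels of both mitochondrial subunits the 6 cold libraries sit above the 6 RT libraries, whereas the cytosolic ribosomal protein genes and the lymphocyte markers are highest in the 3 Atf4WT cold libraries.

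The medians of the subunits lay close together. In Atf4WT iWAT the median log2 fold change was 0.40 over the 48 *Mrpl* genes, 45 of them higher, and 0.50 over the 28 *Mrps* genes, 27 of them higher. In Atf4AKO iWAT the medians were 0.40, with 44 higher, and 0.45, with 26 higher. Over all tested genes the median was 0.00 in Atf4WT and −0.03 in Atf4AKO iWAT. The mean log2 value of the *Mrps* genes minus that of the *Mrpl* genes was −0.14, −0.10 and −0.06 in the libraries of Atf4WT RT and −0.08, −0.07 and −0.05 in those of Atf4WT cold, and the ranges overlapped. In Atf4AKO the differences were −0.10, −0.10 and −0.08 at RT and −0.06, −0.08 and −0.09 after cold exposure, which also overlapped.

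Symbols do not follow the structure for every member. *Mrps18a* and *Mrps30* encode proteins that sit in the large subunit, and the protein of *Mrps36* is known as a part of the 2-oxoglutarate dehydrogenase complex. With the former counted as large subunit genes and *Mrps36* left out, the medians were 0.40 and 0.40 over 50 large subunit genes in Atf4WT and Atf4AKO, and 0.47 and 0.41 over 25 small subunit genes. By descent, 43 members have a bacterial counterpart and 32 are specific to mitochondria. Of those with a bacterial counterpart, 22 were called higher in Atf4WT and 22 in Atf4AKO, with medians of 0.36 and 0.32. Of the mitochondria-specific members, 23 and 22 were called higher, with medians of 0.47 and 0.47. The difference between these classes was not tested.

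In all, 6 genes left the family trend, in that they lay over 0.5 (log2) from the median of the members (0.42 in Atf4WT and 0.41 in Atf4AKO) on the same side in both genotypes. *Mrpl47*, *Mrps2*, *Mrps18b*, *Mrps23* and *Mrpl12* lay above it and *Mrps6* below it. The stretch before the RefSeq start is shown for a pair of the genes above the trend and for *Mrps6*, to set a strongly higher member beside the lower one. The bases come from the RefSeq promoter table (GRCm38.p6, 5′ to 3′ on the strand of the gene), without bases that GENCODE counts as exon. Capitals mark GC boxes (GGGCGG on either strand), a motif that was added to the search after the values were seen.

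*Mrps2*, chr2:28467816-28468065, plus strand: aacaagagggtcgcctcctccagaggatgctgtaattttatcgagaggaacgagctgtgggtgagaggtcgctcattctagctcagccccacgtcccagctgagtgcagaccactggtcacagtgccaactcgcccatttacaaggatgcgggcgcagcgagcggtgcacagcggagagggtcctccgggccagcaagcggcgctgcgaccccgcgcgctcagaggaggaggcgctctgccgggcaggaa

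*Mrps23*, chr11:88204138-88204387, plus strand: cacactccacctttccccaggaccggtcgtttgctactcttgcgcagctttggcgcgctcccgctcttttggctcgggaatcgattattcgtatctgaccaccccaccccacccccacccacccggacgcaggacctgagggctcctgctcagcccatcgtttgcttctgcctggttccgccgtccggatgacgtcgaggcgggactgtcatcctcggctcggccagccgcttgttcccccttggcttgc

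*Mrps6*, chr16:92058086-92058269, plus strand: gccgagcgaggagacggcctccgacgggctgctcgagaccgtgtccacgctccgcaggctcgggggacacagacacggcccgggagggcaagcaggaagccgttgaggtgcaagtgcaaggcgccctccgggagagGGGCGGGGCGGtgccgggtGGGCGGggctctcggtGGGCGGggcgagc

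The *Mrps6* stretch held 4 GC boxes in 184 bases, of which 75.5% were G or C, and the stretches of *Mrps2* and *Mrps23* held none in 250 bases, with 63.6% and 64.0% G or C. *Mrps18b*, above the trend, also held a GC box, as did 48.5% of the members with a window, whose median log2 fold change in Atf4WT was 0.41 with and 0.43 without it. An ETS motif (CCGGAAG on either strand) began 16 bases after the start of *Mrps23*.

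*Mrpl47* encodes a large subunit protein beside the exit of the peptide tunnel, the counterpart of bacterial uL29, and had the largest response of the family. It is listed as NM_029017 (mm10, chr3:32725397-32737605, minus strand). Its normalized counts were 372, 380.1 and 361 in Atf4WT RT and 972, 905 and 885 in Atf4WT cold. In Atf4AKO they were 389, 418 and 393 at RT and 913, 1119 and 1096 after cold exposure. The lowest cold library was thus more than double the highest RT library, and the 4 groups fell into 2 bands by temperature. On the log2 scale the cold response was 1.31 (standard error 0.09, adjusted p = 2.14e-05) in Atf4WT and 1.37 (adjusted p = 1.26e-05) in Atf4AKO mice. The gene shares 616 exon bases with *Ndufb5*, a complex I subunit gene on the opposite strand, and 452 with *Actl6a*. Their log2 fold changes were 0.89 and 0.48 in Atf4WT and 0.92 and 0.50 in Atf4AKO, each called higher. The library kit keeps the strand, and reads were counted for the gene they overlap most, but no strand setting of the counting is named in the sources used here, so reads on shared bases may have been counted for either gene.

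*Mrps2*, the counterpart of bacterial uS2, is listed as NM_080452 (chr2:28468066-28471178, plus strand). Normalized counts were 1028, 1096 and 891 in Atf4WT RT, 2327, 2328 and 2274 in Atf4WT cold, 1029.9, 1266 and 983 in Atf4AKO RT and 2131, 2833 and 2706 in Atf4AKO cold. All cold libraries were above all RT libraries. The response came to 1.20 on the log2 scale (standard error 0.13, adjusted p = 0.000121) in Atf4WT and 1.22 (adjusted p = 0.000127) in Atf4AKO mice.

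*Mrps18b* (NM_025878, chr17:35910379-35916389, minus strand) is one of 3 paralogs of bacterial S18 in the mouse, which occupy different places in the ribosome. Its normalized counts were 739.6, 698 and 634 in Atf4WT RT, 1545, 1470.3 and 1401 in Atf4WT cold, 775, 846 and 716 in Atf4AKO RT and 1468, 1860.5 and 1820.2 in Atf4AKO cold. RT and cold libraries did not overlap, and the log2 fold changes were 1.09 (standard error 0.11, adjusted p = 9.22e-05) and 1.13 (adjusted p = 7.98e-05). The other paralogs had smaller estimates, and the difference between paralogs was not tested. *Mrps18a*, the large subunit paralog, had log2 fold changes of 0.55 (standard error 0.13, adjusted p = 0.00995) and 0.51 (adjusted p = 0.0176). *Mrps18c*, the paralog in the place of the bacterial protein, had 0.17 (standard error 0.09, adjusted p = 0.144) and 0.28 (adjusted p = 0.0348), so it passed in Atf4AKO and not in Atf4WT mice. Its interaction, 0.10 (95% confidence interval −0.16 to 0.37), did not pass. The call of *Mrps18c* in Atf4AKO was lost in 6 of 24 alternatives, and that of *Mrps18a* without Atf4AKO RT replicate 0 or 2 or Atf4AKO cold replicate 1.

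*Mrps23*, a mitochondria-specific small subunit gene (NM_001291270, chr11:88204388-88211507, plus strand), had normalized counts of 1570.1, 1693 and 1473 in Atf4WT RT, 3205, 3194 and 2704 in Atf4WT cold, 1566, 1825 and 1538 in Atf4AKO RT and 2899.7, 3756 and 3013 in Atf4AKO cold, again without overlap between temperatures. The log2 fold changes were 0.94 (standard error 0.12, adjusted p = 0.000308) and 0.97 (adjusted p = 0.000310). *Mrpl12*, a stalk protein of the large subunit that is also known to bind the mitochondrial RNA polymerase, is listed as NM_027204 (chr11:120484613-120489065, plus strand). It was the member with the highest normalized count of any library, 8635 in Atf4WT cold replicate 0. Its counts were 3608, 3354 and 2422 in Atf4WT RT and 8635, 7440.2 and 6001 in Atf4WT cold, and 3725, 4195 and 3123 in Atf4AKO RT and 6774, 8267 and 5918 in Atf4AKO cold. In log2 terms the response was 1.24 (standard error 0.19, adjusted p = 0.000870) in Atf4WT and 0.92 (adjusted p = 0.00503) in Atf4AKO mice. Although *Mrpl12* had the largest difference between the responses of the genotypes among the members, −0.32 with a 95% confidence interval of −0.90 to 0.26, this did not pass the test (unadjusted p = 0.254).

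*Mrps6*, the counterpart of bacterial bS6 (NM_080456, chr16:92058270-92112227, plus strand), went the other way. Normalized counts were 1724, 2445 and 1918 in Atf4WT RT and 1469.98, 1395 and 1088 in Atf4WT cold, and 2104, 1951 and 1744 in Atf4AKO RT and 1455, 1484 and 1168 in Atf4AKO cold. Each cold library was below each RT library of both genotypes. It fell by 0.62 on the log2 scale (standard error 0.15, adjusted p = 0.0118) in Atf4WT and by 0.50 (adjusted p = 0.0352) in Atf4AKO mice. The call in Atf4WT was lost with the lymphocyte score as a covariate (log2 fold change −0.41, adjusted p = 0.311), and that in Atf4AKO without Atf4AKO RT replicate 0 or 1 or Atf4AKO cold replicate 1 or 2, with adjusted p-values up to 0.119. *Mrps6* shares 159 exon bases, 10.4% of its own, on the same strand with *Slc5a3*, the gene of a sodium and myo-inositol cotransporter. Another same-strand overlap, with *Gm49711*, covers 305 of its exon bases (19.9%), and that gene was not among those tested. *Slc5a3* fell by 1.17 in Atf4WT (adjusted p = 0.00232) and by 0.72 in Atf4AKO mice (adjusted p = 0.0291). Reads on the shared bases cannot be told apart, and their part in the lower values of *Mrps6* was not tested. Among the members, 4 had exon bases in common with another protein-coding gene on the same strand and 20 on the opposite strand.

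**Figure D3:**
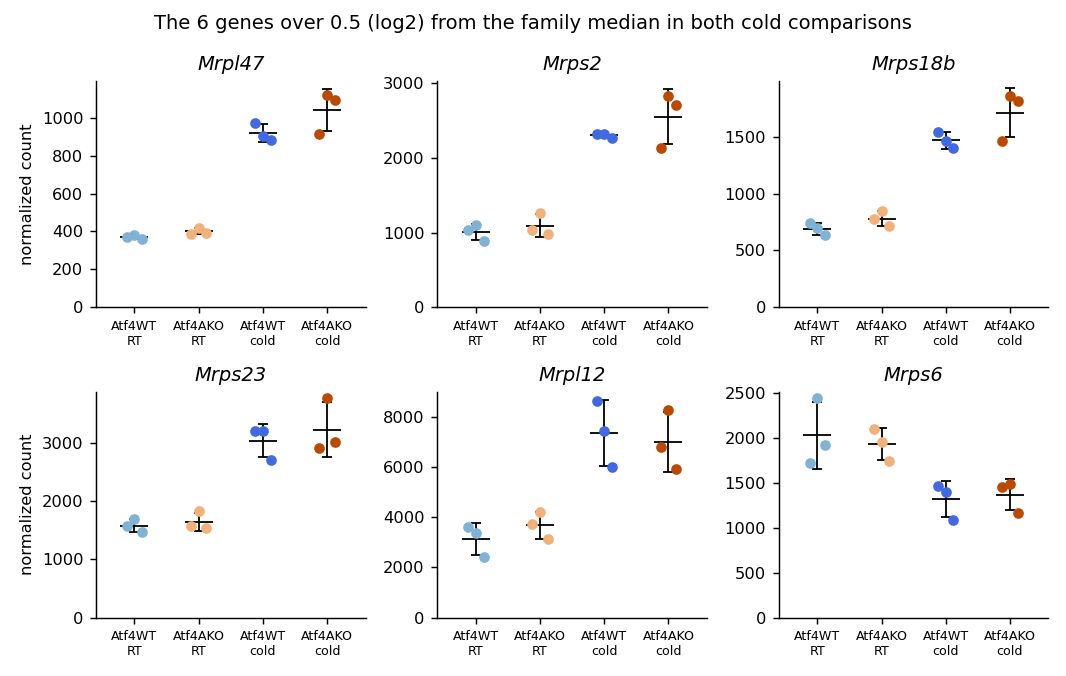
Normalized counts of the 6 genes that left the family trend in each library (points), with the group mean and SD (n = 3), on y axes that start at 0 and differ between panels. *Mrpl47*, *Mrps2*, *Mrps18b*, *Mrps23* and *Mrpl12* are higher in all cold libraries of both genotypes, and *Mrps6* is lower in them.

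The remaining members among the 6 highest of either genotype were *Mrps36*, *Mrpl20* and *Mrpl34*. *Mrps36* had normalized counts of 507, 598 and 533 in Atf4WT RT, 1079, 990.1 and 878 in Atf4WT cold, 512, 601 and 532 in Atf4AKO RT and 886, 1357 and 1011 in Atf4AKO cold, and log2 fold changes of 0.84 (standard error 0.15, adjusted p = 0.00203) and 0.96 (adjusted p = 0.00123). *Mrpl20*, a large subunit gene with a bacterial counterpart, had 0.91 (adjusted p = 0.000941) and 0.84 (adjusted p = 0.00183). For *Mrpl34*, another such gene, the values were 0.82 (adjusted p = 0.00616) and 0.93 (adjusted p = 0.00398). Their cold and RT libraries did not overlap in either genotype.

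At the lower end, apart from *Mrps6*, the members showed little difference between temperatures and none was called. *Mrpl14*, the counterpart of bacterial uL14, had normalized counts of 1166, 1124 and 936 in Atf4WT RT, 1045, 1061 and 806 in Atf4WT cold, 1059.7, 1209.8 and 1045 in Atf4AKO RT and 1071, 1221 and 901 in Atf4AKO cold, and the groups overlapped. Its log2 fold changes were −0.15 (95% confidence interval −0.46 to 0.16) and −0.06 (−0.37 to 0.25), so an increase of the size of the family median lay outside both intervals. *Mrpl40*, a mitochondria-specific member, had −0.04 (−0.30 to 0.23) and −0.02 (−0.29 to 0.24). *Mrpl39*, also specific to mitochondria, had −0.01 and 0.18, *Mrpl49*, another of these, had 0.02 and 0.11, *Mrps15*, the counterpart of uS15, had 0.07 and −0.08, and *Mrpl23*, that of uL23, had 0.11 and −0.09 in Atf4WT and Atf4AKO mice. In total 26 members, *Mrps6* among them, were called higher in neither genotype.

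Members with other known tasks spread over the range. *Mrpl45*, which holds the ribosome at the inner membrane, was called higher in both genotypes, with log2 fold changes of 0.48 (standard error 0.11, adjusted p = 0.00856) and 0.54 (adjusted p = 0.00551). *Mrpl58*, a peptidyl-tRNA hydrolase that rescues stalled ribosomes, had 0.53 (adjusted p = 0.0173) in Atf4WT and 0.33 (adjusted p = 0.114) in Atf4AKO mice. The call in Atf4WT was lost without Atf4WT RT replicate 0 or Atf4WT cold replicate 0. *Mrps30*, a large subunit protein by structure, had 0.24 (adjusted p = 0.0934) and 0.31 (adjusted p = 0.0401), and the latter call was lost in 10 of 24 alternatives. *Mrps12*, whose protein lies at the decoding centre, had 0.17 and 0.13, and *Mrpl33*, a small protein near the exit site of the large subunit, had 0.18 and 0.21. Neither of the latter was called.

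Transcript levels differed far more between members than between conditions. On the scale of normalized counts per kb of transcript, the highest member was 37.9 times the lowest over all libraries. The highest levels were those of *Mrps21*, a small subunit gene (4572 in Atf4WT RT and 5644 in Atf4WT cold), *Mrpl12* (2377 and 5592) and *Mrpl20* (2536 and 4805). The lowest were those of *Mrpl19* (95.4 and 177), *Mrps25* (169 and 185) and *Mrpl47* (110.3 and 274). The annotated transcripts of these were long, with 5000, 6073 and 3364 bases against 405 for *Mrps21*, and a shorter transcript in this tissue would raise the level per kb. *Mrpl19* was called higher, its log2 fold change being 0.89 in Atf4WT (adjusted p = 0.000449) and 0.88 in Atf4AKO (adjusted p = 0.000576). In contrast, *Mrps21* had 0.30 and 0.13 and *Mrps25* 0.12 and 0.19, none of them called. On the opposite strand, *Gcfc2* overlaps 36% of the exon bases of *Mrpl19*, and *Nr2c2* overlaps 69.8% of those of *Mrps25*. The median level per kb was 913 in Atf4WT RT, 962 in Atf4AKO RT, 1224 in Atf4WT cold and 1293 in Atf4AKO cold. The order of the members was largely kept, with a Spearman rho of 0.95 between Atf4WT RT and Atf4WT cold over 76 members, which share transcript lengths. The SD over members of the log2 level per kb was 1.14 in Atf4WT RT and 1.12 in Atf4WT cold.

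**Figure D4:**
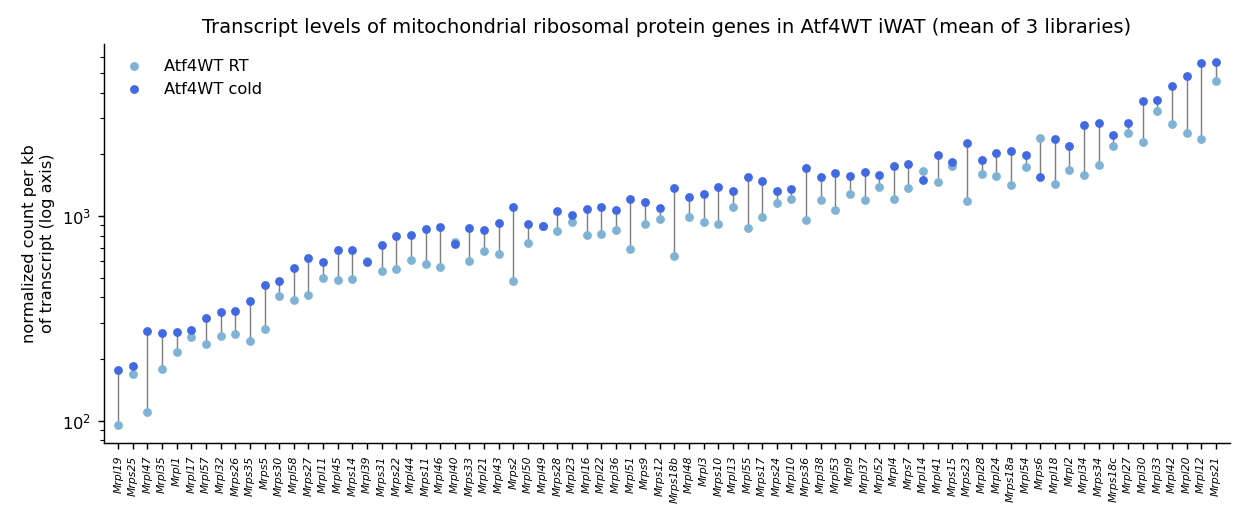
Normalized count per kb of transcript (log axis) of each member in Atf4WT RT (light) and Atf4WT cold (dark), as the mean of 3 libraries, in the order of the mean over all 12 libraries. *Mrpl19* is lowest and *Mrps21* highest, most dark points lie above the light ones, and *Mrps6* shows the reverse.

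Loss of *Atf4* in adipocytes was compared at each temperature. At RT, 72 of the 76 members had a higher estimate in Atf4AKO than in Atf4WT, as did 6942 of the 13404 tested genes. The medians were 0.09 for *Mrpl* and 0.12 for *Mrps* genes beside 0.01 over all tested genes. These medians were 0.031 and 0.041 without Atf4WT RT replicate 2, 0.048 and 0.065 without Atf4AKO RT replicate 1, and up to 0.16 and 0.18 without one of the other libraries. No member was called by limma, edgeR or DESeq2, and 0.00746% of all tested genes were called by limma. At an unadjusted p-value under 0.05, 1 member passed, against 1.53% of all tested genes. It was *Mrpl52*, a mitochondria-specific large subunit gene, with normalized counts of 572, 618 and 553 in Atf4WT RT and 654, 649 and 677 in Atf4AKO RT. Its log2 difference was 0.19 (95% confidence interval 0.00 to 0.37, adjusted p = 1.00). Next were *Mrps31* with 0.23 (−0.03 to 0.49) and *Mrps24* with 0.19 (−0.03 to 0.41), both small subunit genes. For comparison, the SD between replicates of the subunit mean averaged 0.13 for *Mrpl* and 0.12 for *Mrps* genes, which is no smaller than these medians.

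After cold exposure, 68 of 76 members had a higher estimate in Atf4AKO than in Atf4WT, as did 7955 of the 13404 tested genes. The medians were 0.11 for *Mrpl* and 0.08 for *Mrps* genes beside 0.05 over all tested genes. Again no member was called by limma, edgeR or DESeq2 (0.0298% of all tested genes by limma), and none had an unadjusted p-value under 0.05, against 11.7% of all tested genes. The smallest p-values were those of *Mrpl39*, with 0.23 (−0.00 to 0.46, adjusted p = 0.431), *Mrpl35*, a large subunit gene with a bacterial counterpart, with 0.25 (−0.00 to 0.51), and *Mrps5*, the counterpart of uS5, with 0.23 (−0.01 to 0.46). Beside these values stands the lymphocyte score, which was higher in all Atf4WT cold than in all Atf4AKO cold libraries. The medians were 0.012 for *Mrpl* and −0.00921 for *Mrps* genes without Atf4AKO cold replicate 1, and 0.030 and 0.00316 without Atf4WT cold replicate 2. With the lymphocyte score as a covariate the medians turned to −0.31 for *Mrpl* and −0.27 for *Mrps* genes, and no member was called. As the scores of these groups did not overlap, that fit carries a slope from the spread within groups across the gap between them. Genotype and score cannot be told apart here, so these adjusted medians do not measure the loss of *Atf4*.

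The cold responses of the genotypes were close to each other for most members. The 2 cold comparisons share no libraries, and over the 76 members their log2 fold changes had a Pearson r of 0.95, beside 0.59 over all tested genes, where genes are not independent replicates. The tested genes reach down to a mean of 10 normalized counts, below any member, and include lymphocyte markers. Over 9 B cell markers the median cold responses were 4.55 in Atf4WT and −0.58 in Atf4AKO. The part of such genes in the lower r was not tested. Of the members, 41 were called higher in both genotypes, against 11.3% of all tested genes. *Mrps9*, *Mrpl22*, *Mrpl24*, *Mrpl43* and *Mrpl58* were called in Atf4WT and not in Atf4AKO mice, and *Mrpl1*, *Mrpl27*, *Mrps18c* and *Mrps30* in Atf4AKO and not in Atf4WT mice. Their interaction p-values lay between 0.161 and 0.611 without adjustment, so none was shown to differ between the genotypes. No member passed the interaction test with limma, edgeR or DESeq2, nor did any gene with limma (0%), and none had an unadjusted p-value under 0.05, against 6.92% of all tested genes. The smallest p-value was that of *Mrpl52*, at −0.23 (95% confidence interval −0.49 to 0.02, unadjusted p = 0.0716, adjusted p = 0.788), followed by *Mrpl27* at 0.25 (−0.12 to 0.61) and *Mrpl39* at 0.19 (−0.14 to 0.52). The median absolute interaction was 0.08 over the members and 0.15 over all tested genes, which include the low-count and lymphocyte genes named above. The 95% confidence interval of a single member reached 0.26 to 0.58 to either side of its estimate, with a median of 0.37, which bounds the difference between the genotypes that 3 libraries a group could show. The median interaction lay between −0.081 and 0.088 for *Mrpl* and between −0.11 and 0.044 for *Mrps* genes when libraries were left out in turn. With the lymphocyte score as a covariate it was −0.37 for *Mrpl* and −0.36 for *Mrps* genes. The score was high in Atf4WT cold only as a group, so it cannot be told apart from the interaction in this fit.

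Other ribosome and respiratory chain genes give the family its setting. Their counts stand beside 17.0% of all tested genes called higher in Atf4WT and 14.8% in Atf4AKO, and 14.9% and 11.0% called lower. The 83 genes of OXPHOS subunits, many of whose partners are products of mitochondrial ribosomes, had median log2 fold changes of 0.61 in Atf4WT and 0.64 in Atf4AKO, with 61 and 60 called higher and 2 and 1 called lower. The 81 cytosolic ribosomal protein genes, which serve the ribosomes that translate nuclear messages, had 0.37 in Atf4WT and 0.00 in Atf4AKO, with 57 and 5 called higher and 0 and 3 called lower. Their interaction had a median of −0.38, and 60 of 81 had an unadjusted p-value under 0.05 although none passed after adjustment, whereas the median interaction of the mitochondrial family was 0.01 with none of 76 at that level. The difference between these families was not tested. Between the genotypes, 74 of the 83 OXPHOS and 79 of the 81 cytosolic ribosomal protein genes had a higher estimate in Atf4AKO at RT (medians 0.11 and 0.15). After cold exposure 73 and 6 did (medians 0.12 and −0.25). The mitochondrial aminoacyl-tRNA synthetases, which charge the tRNAs of the organelle, had medians of 0.29 and 0.32 over 16 genes, with 5 and 6 called higher and 1 called lower in each genotype.

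Of 56 other genes of mitochondrial ribosome assembly, translation, transcription and their regulators, 29 were called higher in Atf4WT and 29 in Atf4AKO iWAT, and none was called lower. Over all tested genes, 17.0% and 14.8% were called higher and 14.9% and 11.0% lower. Among ribosomal proteins with other symbols, 3 of 5 were called higher in Atf4WT and 2 in Atf4AKO, as were 8 and 9 of 23 assembly genes, 10 and 10 of 15 translation factors and 8 and 8 of 13 transcription genes. The highest in Atf4WT were the transcriptional coactivators *Ppargc1a* and *Ppargc1b*, at 2.01 (adjusted p = 0.000305) and 1.62 (adjusted p = 0.000367), the rRNA methyltransferase gene *Mrm3* at 1.43 (adjusted p = 0.000108) and the nuclear receptor gene *Esrra* at 1.27 (adjusted p = 0.000449). In Atf4AKO they had 2.57, 2.15, 1.46 and 1.23, each called higher. The lowest in Atf4WT were *Mettl15*, a methyltransferase gene of the small subunit rRNA, at −0.47, *Mterf1b* at −0.43, the release factor gene *Mtrf1* at −0.08 and the helicase gene *Ddx28* at −0.07, none of them called.

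Promoter windows of 300 bases, from 250 before to 50 after the RefSeq start, were found for 68 of the 76 members, and motifs were searched on both strands. The ETS motif (CCGGAAG), bound by factors such as GABPA, was in the windows of 25 of these genes (36.8%), against 16.0% of the windows of tested genes and 8.86% of all windows in the table. The NRF1 motif (GCATGCGC) and the YY1 motif (AAGATGGCG) were each in 8 (11.8%), against 4.81% and 2.70% of the windows of tested genes. The ESRRA motif (CAAGGTCA) and the CRE (TGACGTCA) were in 2 genes each (2.94%), against 1.03% and 2.83%. The ATF4 motif (TGATGCAAT) was in none, against 0.117%, which says only that these letters are not in these windows. The GC box was in 60.1% of the windows of tested genes, beside the share of members given above. Counted by window, as the shares of tested genes are, the 73 windows of members held the ETS motif in 34.2% and the GC box in 50.7%. The NRF1 and YY1 motifs were in 11.0% of these windows each, and the ESRRA motif and the CRE in 2.74% each. Median log2 fold changes in Atf4WT were 0.47 in members with and 0.41 in members without the ETS motif, 0.23 and 0.43 for the NRF1 motif, and 0.56 and 0.41 for the YY1 motif, differences that were not tested. Of the genes that left the trend, *Mrps18b* held the ETS, NRF1 and GC box motifs and *Mrps23* the ETS motif, and none of the first 6 motifs was in *Mrpl47*, *Mrps2*, *Mrpl12* or *Mrps6*.

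Members often lie head to head with another gene. By GENCODE, 33 of the 76 had the start of a protein-coding gene on the other strand within 1000 bp (43.4%), against 14.7% of 13904 listed genes with 1 gene model. *Mrpl46* and *Mrps11*, one gene of each subunit, face each other in this way, with first parts that overlap over 412 bp and hold 173 shared exon bases. Both were called higher, with log2 fold changes of 0.67 and 0.57 in Atf4WT and 0.73 and 0.48 in Atf4AKO mice. *Mrps18b* faces *Ppp1r10*, a gene of a phosphatase regulator, whose start is 45 bp away, and *Ppp1r10* had −0.08 and −0.00 and was not called, and the difference between the pair was not tested. *Mrpl49*, at the lower end of the family, faces the ribosomal protein gene *Fau*, which was called higher in Atf4WT at 0.53 and had 0.02 in Atf4AKO.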

How the data were processed

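PolyA RNA of whole iWAT was measured in 12 libraries. The authors used SOAPnuke for read filtering, STAR for alignment (mm10) and featureCounts for counting of unique reads (by largest overlap), and deposited a normalized signal, namely reads over a size factor per library computed as in DESeq2; tool versions and the strand setting are not given in the sources used here. Dividing by the value of 1 read gave whole reads for 100% of the values (within 0.000313 reads). The normalized values were tested with limma 3.58.1 (R 4.3.3) on log2(value + 1) over 13404 genes (mean of 10 or more), as 4 group means with a variance trend and Benjamini-Hochberg adjustment. The study's methods name pyDESeq2; DESeq2 1.42.0 and edgeR 4.0.16 were run on the recovered reads as alternatives. Groups and replicate numbers came from the sample labels.

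Members and gene lists were chosen with earlier results of these data known; *Mrpl55* was moved to the mitochondria-specific members, and the GC box added, after the values were seen. Named members were the 6 highest and 6 lowest of each cold comparison, those over 0.5 from the family median in both, the 3 smallest p-values of each other comparison, the 3 highest and lowest per kb, and 10 chosen by role; other translation genes named were the 4 highest and 4 lowest, and genes called in 1 genotype or lying head to head were named after their values were seen. Positions came from GENCODE vM21. Transcript length was that of the longest GENCODE transcript matched to the listed RefSeq identifier. Alternatives were pseudocounts of 0.5 and 5, no filter, a mean of at least 50, only the 2 groups compared, 75th percentile and TMM scaling, array weights, a block for the replicate number, a covariate for the lymphocyte score, each library left out, edgeR, DESeq2 and the study's thresholds. Python 3.11.15, numpy 2.4.6, pandas 2.3.3 and matplotlib 3.10.9 were used.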

Additional observations from a re-analysis of the deposited data

How the results depend on the processing

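The number of members called in Atf4WT (47) lay between 35 and 49, and that in Atf4AKO (46) between 29 and 47, when libraries were left out in turn; the latter was 29 without Atf4AKO cold replicate 1. By the thresholds of the study (1.5-fold, p under 0.05 without adjustment), 23 and 21 members passed. The other alternatives gave 43 to 57 and 40 to 51. No member was called in the comparisons of the genotypes or the interaction under any alternative. The replicate number as a replicate block gave 57 and 51 called members; of 18 pairs of same-numbered libraries 9 had correlated deviations over 0.1 (from −0.19 to 0.39), which does not meet the bar for pairing (every pair over 0.1). All 6 pairs of replicate 1 were over it (0.18 to 0.39), and 6 of 12 libraries correlated best with one of their own number, as a hint from the data and not the design.

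With the lymphocyte score as a covariate, the medians in Atf4WT rose to 0.71 (*Mrpl*) and 0.74 (*Mrps*). Those of Atf4AKO against Atf4WT after cold turned to −0.31 and −0.27, and those of the interaction to −0.37 and −0.36. The score moved with the groups, so these fits cannot tell it apart from group, and the cause was not tested. Under this covariate, *Mrpl14* (0.21), *Mrpl39* (0.24) and *Mrpl40* (0.26) turned positive in Atf4WT. *Mrpl35* (−0.11), *Mrpl39* (−0.081) and *Mrps5* (−0.055) turned negative between the cold genotypes, and so did the interactions of *Mrpl27* (−0.12) and *Mrpl39* (−0.10). *Mrpl49* in Atf4WT turned to −0.00822 with 75th percentile scaling, −0.00144 with TMM, −0.036 with array weights and −0.014 with edgeR. With libraries left out, estimates near 0 crossed it in Atf4WT for *Mrpl39* (−0.090 to 0.043), *Mrpl40* (−0.14 to 0.047), *Mrpl49* (−0.13 to 0.13) and *Mrps15* (−0.031 to 0.17), and in Atf4AKO for *Mrpl14* (−0.17 to 0.053), *Mrpl40* (−0.088 to 0.065), *Mrps15* (−0.14 to 0.018), *Mrps21* (−0.00318 to 0.25) and *Mrps24* (−0.000750 to 0.15). None of these was called with all libraries. With 3 libraries a group, replicate spread limits single genes more than depth does.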
